A study of Mus musculus with 36 samples.

Results

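HPC-1 from the bone marrow (BM) of Ang II-infused *Apoe*-/-*Il27ra*+/- mice were set against HPC-1 from Ang II-infused *Apoe*-/- mice with intact *Il27ra*. The comparison holds 7 of the 36 RNA-sequencing libraries of the series, taken by their cell, agent and genotype labels, with 4 heterozygous and 3 intact libraries. It asks how the loss of 1 *Il27ra* allele bears on the transcripts of an early progenitor during Ang II infusion. All of these mice lacked *Apoe*, were on the C57BL/6 background and ate a Western diet (WD) for 12 weeks that began 8 weeks after birth. Ang II, the vasoconstrictor peptide of the renin-angiotensin system, was given at 800 ng per kg per min from an osmotic pump during the last 2 weeks, and control mice received PBS. The *Il27ra* deletion was germline, so all cell types of the heterozygous mice carried it. For each library 5000 cells were FACS-sorted through a Lin-Sca-1+c-kit+CD150-CD48+ gate, and the sample labels call the cells ST-HSC. The labels give neither the sex of the mice nor whether replicates came from separate animals or from pools, so the p-values below measure the spread between these libraries, part of which may be technical. A supplementary legend of the paper counts 2 intact, 4 heterozygous and 3 knockout mice, whereas the labels hold 3, 4 and 4 such HPC-1 libraries after Ang II.

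IL-27 signals through a receptor made of IL-27RA and the shared subunit gp130, which is encoded by *Il6st*, and the receptor activates JAK kinases and STAT transcription factors. HPC-1 are cycling progenitors close to the hematopoietic stem cell, with lymphoid and myeloid potential, and they lie downstream of the long-term stem cells (LT-HSC) sorted in the same study. Ang II is known to drive hypertension and, in *Apoe*-/- mice, abdominal aortic aneurysm, and myeloid cells made in the BM enter the aneurysm wall.

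The intact libraries held 3517996, 3412686 and 2319520 counts, and the heterozygous libraries held 2618919, 2349391, 2272026 and 6318379. Heterozygous replicate 4 was by far the deepest, and the others lay between 2272026 and 3517996 counts. Levels below are CPM, the count of a gene relative to the size of its library, scaled with TMM factors over all 19 HPC-1 libraries, and always follow the order of the replicates. The floor of 3 counts stood between 0.458 and 1.31 CPM in these 7 libraries, and it covers counting error only.

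The transcripts of the sorted surface markers followed the gate with 1 exception. *Kit* spanned 539 to 1053 CPM over the 7 libraries and *Cd48* spanned 49.6 to 85.6 CPM, scaled together with the LT-HSC, where *Cd48* spanned 0 to 1.86 CPM. *Slamf1*, which encodes CD150, was at 0.456 to 8.23 CPM in HPC-1 and 21.9 to 59.2 CPM in LT-HSC, and *Flt3* at 205 to 468 CPM in HPC-1 and 7.97 to 59.9 CPM in LT-HSC. The exception was *Ly6a*, which encodes Sca-1, with only 1.82 to 8.23 CPM in HPC-1 and 6.74 to 28.9 CPM in LT-HSC. The HPC-1 and LT-HSC libraries thus did not overlap for *Cd48*, *Slamf1* or *Flt3*, whereas the *Ly6a* transcript was low although the cells were sorted for its protein.

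Among the 7 libraries, 2 stood apart. Intact replicate 3 had a median Spearman correlation across genes of 0.891 with the other 6 libraries, against 0.954 and 0.961 for intact replicates 1 and 2 and between 0.924 and 0.954 for the heterozygous libraries. Its own group was split the same way, as intact replicates 1 and 2 correlated at 0.981 with each other and at 0.898 and 0.901 with replicate 3. Heterozygous replicate 4 differed in sex-linked transcripts, with *Xist*, the RNA of the inactive X chromosome, at 3379 CPM and Y-linked genes summing to 0 CPM. In the other 6 libraries *Xist* was between 3.44 and 14.2 CPM and the Y-linked sum between 171 and 325 CPM.

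*Il27ra* itself, on chromosome 8 from 84030294 to 84042589 (mm10), was at 9.88, 8.59 and 6.02 CPM in the intact libraries and at 5.22, 9.19, 13.9 and 15.6 CPM in the heterozygous ones. The groups overlapped, and the heterozygous mean of 10.98 ± 4.70 CPM (SD, n = 4) was not below the intact mean of 8.16 ± 1.97 CPM (SD, n = 3). The difference on the log2 scale was 0.43 ± 0.46 (SE), with an adjusted p of 0.831 by the edgeR quasi-likelihood F-test (Benjamini-Hochberg adjusted). The 4 *Apoe*-/-*Il27ra*-/- libraries of Ang II-infused HPC-1 still counted 6.35, 5.81, 4.38 and 8.57 CPM at the gene. The total over this gene therefore did not separate the 3 genotypes in HPC-1, where it was low, and does not check the genotype label of an HPC-1 library. In LT-HSC after Ang II, scaled apart from HPC-1, *Il27ra* was at 44.7 and 53.4 CPM in intact cells. Heterozygous LT-HSC held 31.4, 26.7, 28.4 and 33.9 CPM, without overlap (log2 −0.70 ± 0.32, SE). The adjusted p there was 0.296 by the edgeR quasi-likelihood F-test (Benjamini-Hochberg adjusted).

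Across the genome, no gene reached an adjusted p under 0.05. The edgeR quasi-likelihood F-test (Benjamini-Hochberg adjusted) called 0 of 13199 genes (0%), while 408 genes (3.09%) were higher and 567 (4.3%) lower in heterozygous HPC-1 at an unadjusted p under 0.05. All 4 heterozygous libraries lay above all 3 intact ones for 379 genes (2.87%) and below them for 468 (3.55%). Since 2 of the 35 ways to assign the libraries separate them so, chance gives a share of 0.0571 over both directions. The median log2 difference over the 13199 genes was 0.02. These shares are the background against which each list of genes below is read. Without intact replicate 3 the unadjusted counts were 183 higher and 213 lower, and without heterozygous replicate 4 they were 515 and 590. Without both they were 270 and 355. Without intact replicate 1 they were 626 and 573, and without intact replicate 2 they were 675 and 582. Without heterozygous replicate 1, 2 or 3 they were 615 and 537, 467 and 467, or 354 and 475.

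Other tools called few genes. DESeq2 called 2 genes and had 1133 at an unadjusted p under 0.05. Its calls were *Evpl* and *Gm24924*, a small nuclear RNA gene at 0 CPM in the 3 intact libraries and at 23.5, 90.1, 0 and 222 CPM in the heterozygous ones, so 1 heterozygous library also lacked it. limma-voom with sample weights called 13 genes, 12 of them lower, with 1287 at an unadjusted p under 0.05. Of its 13 calls 8 belong to the intestinal epithelial list described below, and the single gene called higher was *Dqx1*, named here after its value was seen. Without a filter on low counts, edgeR called 33 of 27858 genes, 9 higher and 24 lower. Fitted on only the groups compared, edgeR called 0 and had 177 genes higher and 197 lower at an unadjusted p under 0.05, the fewest of any alternative.

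Among genes averaging at least 10 CPM whose groups did not overlap, the 8 with the smallest p on the heterozygous side were led by *Itgam* and *Evpl*. *Itgam*, which encodes the myeloid integrin CD11b, was at 34.3, 33.7 and 15.5 CPM in the intact libraries and at 47.4, 52.9, 69.6 and 65.5 CPM in the heterozygous ones. The lowest heterozygous library was thus above the highest intact one, and intact replicate 3 was the lowest of all. The mean was 2.12-fold higher in heterozygous HPC-1, or 1.07 ± 0.25 (SE) on the log2 scale, and 0.79 without intact replicate 3. *Evpl*, which encodes the desmosome-linked protein envoplakin, was at 6.10, 10.4 and 3.44 CPM in the intact libraries and at 18.7, 20.6, 25.7 and 17.7 CPM in the heterozygous ones. The heterozygous libraries were all above the intact range, a 3.11-fold difference in means (log2 1.61 ± 0.38, SE).

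Nicotinamide nucleotide transhydrogenase, a mitochondrial NADPH source encoded by *Nnt*, was at 51.4, 47.2 and 17.2 CPM in the intact libraries and at 74.8, 108, 68.4 and 74.5 CPM in the heterozygous ones. *Nnt* is known to carry a deletion in the C57BL/6J substrain, and these mice are described as C57BL/6. Heterozygous replicate 2 was the highest and intact replicate 3 the lowest, with no overlap (log2 1.06 ± 0.27, SE). *Trafd1*, a negative regulator of innate immune signaling, was at 50.3, 54.6 and 27.5 CPM against 68.7, 81.4, 97.5 and 81.4 CPM (log2 0.89 ± 0.23, SE). *Cyth4*, which encodes a guanine nucleotide exchange factor for ARF proteins, was at 37.2, 35.3 and 45.1 CPM against 63.9, 98.9, 78.1 and 52.7 CPM (log2 0.90 ± 0.24, SE). *Cyth4* was the gene of these in which intact replicate 3 lay on the heterozygous side of its group. The remaining genes on this side were *Trir* (45.0, 57.0 and 35.7 against 92.6, 93.6, 73.4 and 105 CPM), *Cfap36* (21.5, 31.3 and 21.9 against 63.5, 46.4, 45.2 and 43.7 CPM) and ENSMUSG00000026464, which has no symbol in the annotation used (54.9, 71.8 and 37.8 against 98.3, 85.7, 181 and 77.6 CPM). Their heterozygous means were each close to double the intact means, with log2 differences of 0.99, 0.99 and 1.00.

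On the lower side, 8 genes were named in the same way. *St8sia6*, which encodes a sialyltransferase, was at 39.5, 18.4 and 14.6 CPM in the intact libraries and at 2.17, 5.25, 3.80 and 5.65 CPM in the heterozygous ones. The highest heterozygous library was below the lowest intact one, and the intact mean was 5.73 times the heterozygous mean (log2 −2.49 ± 0.59, SE). *Tfrc*, the transferrin receptor that brings iron into dividing and erythroid cells, was at 217, 217 and 175 CPM in the intact libraries and at 160, 106, 103 and 127 CPM in the heterozygous ones. Its groups were separated by a small margin (log2 −0.72 ± 0.19, SE), with heterozygous replicate 1 nearest to the intact libraries. *Aptx*, a DNA single-strand break repair enzyme, was at 29.1, 33.1 and 46.0 CPM against 19.1, 17.1, 13.5 and 20.3 CPM (log2 −1.03 ± 0.27, SE). *Wdr77*, a subunit of the PRMT5 methyltransferase complex, was at 99.7, 99.7 and 201 CPM against 77.0, 71.3, 79.8 and 76.7 CPM (log2 −0.80 ± 0.20, SE). *Adgrl1*, an adhesion G protein-coupled receptor, was at 33.4, 33.7 and 113 CPM against 14.4, 12.7, 24.9 and 30.1 CPM (log2 −1.52 ± 0.37, SE). For *Wdr77* and *Adgrl1* the distance rested largely on intact replicate 3, and without it the log2 differences were −0.39 and −0.69. With the intestinal list as a covariate, chosen after seeing the data, that of *Adgrl1* was 0.57. Most tested members of that list separated these same groups, so fits with this covariate cannot settle a direction.

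The other genes on the lower side were the unprocessed pseudogene *Gm13339* and the intestinal genes *Clca1* and *Muc2*. *Gm13339* was at 43.3, 57.3 and 110 CPM against 16.5, 28.0, 38.8 and 16.3 CPM (log2 −1.50 ± 0.34, SE), and reads from related genes may be counted there. *Clca1*, a secreted goblet cell protein, was at 11.04, 9.51 and 49.9 CPM against 0, 0, 1.69 and 0 CPM, and *Muc2*, the intestinal gel mucin, at 11.3, 7.05 and 57.6 CPM against 0, 0, 0.422 and 0 CPM. For *Clca1* the heterozygous libraries held at most 4 counts and for *Muc2* at most 1. All 16 genes of these paragraphs had an adjusted p of 0.51 by the edgeR quasi-likelihood F-test (Benjamini-Hochberg adjusted), with 4 of 4 heterozygous libraries on the same side, and so none passed the test in the main fit. With no filter on low counts, edgeR called *Nnt*, *Trir*, ENSMUSG00000026464, *St8sia6*, *Adgrl1*, *Gm13339*, *Clca1* and *Muc2*. limma-voom called *Tfrc*, *Clca1* and *Muc2*, and DESeq2 called *Evpl*. The groups had to separate for a gene to be named here, so the separation itself is no result. In the other libraries of the same fit, *Tfrc* was also lower in heterozygous than in intact HPC-1 after PBS (log2 −0.95), with 229 and 220 CPM in the 2 intact libraries and 129, 90.0 and 130 CPM in the 3 heterozygous ones. *Itgam*, *Cfap36* and *Aptx* did not keep their direction there, with log2 differences after PBS of −0.37, −0.60 and 0.32.

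**Figure D1:**
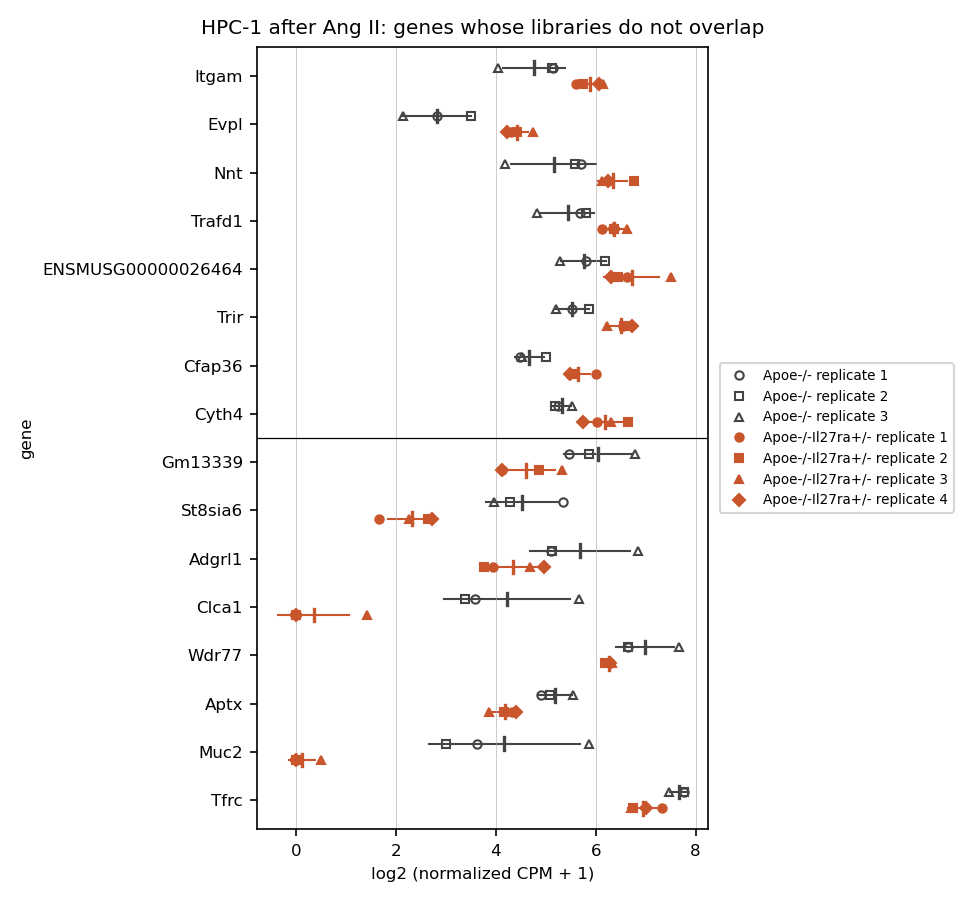
Levels of the 16 genes in each library of HPC-1 after Ang II, as log2 of normalized CPM plus 1 (points, 3 *Apoe*-/- and 4 *Apoe*-/-*Il27ra*+/- libraries; vertical ticks, group means; horizontal bars, SD). The genes were named because their groups do not overlap, and intact replicate 3 is the lowest library for *Itgam*, *Evpl* and *Nnt* and the highest for *Adgrl1* and *Wdr77*.

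*Adgrl1* and *Trir* lie near the deleted locus. *Adgrl1* ends 88.3 kb before *Il27ra* on chromosome 8, and *Trir* starts 984 kb beyond it. Of the 54 tested genes within 1 Mb of *Il27ra*, 3 were higher and 6 lower in heterozygous HPC-1 at an unadjusted p under 0.05, with a median log2 difference of −0.04, against 408 and 567 of 13199 genes and a median of 0.02. The counts near *Il27ra* were 2 and 2 without intact replicate 3, 3 and 3 without heterozygous replicate 1, 1 and 6 without heterozygous replicate 3 and 5 and 6 without intact replicate 1. The window was chosen after these values were seen, and no gene within it passed the edgeR quasi-likelihood F-test (Benjamini-Hochberg adjusted) in the main fit. With no filter on low counts, *Adgrl1* and *Trir* had an adjusted p of 0.0053 and 0.015 by the same test. In Ang II-infused *Apoe*-/-*Il27ra*-/- HPC-1, *Adgrl1* was at 16.8, 24.9, 23.8 and 17.3 CPM, in the heterozygous range, though that comparison shares the 3 intact libraries. In LT-HSC after Ang II, which share none of them, *Adgrl1* was at 111 and 86.2 CPM in intact cells. Heterozygous LT-HSC held 104, 73.1, 147 and 120 CPM, with overlap (log2 0.17 ± 0.33, SE).

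No member of the IL-27 receptor and JAK-STAT list passed the test. Of 25 members 22 were tested, and 18 of the 22 had a positive log2 difference against 6831 of 13199 genes, with a median of 0.23 against 0.02 for all genes. The list summed to 1910, 1870 and 1682 CPM in the intact libraries and to 1995, 2064, 2224 and 2077 CPM in the heterozygous ones. The sums did not overlap, at a ratio of 1.15, and an exact two-sided permutation test gave p = 0.0571, the smallest that the 35 assignments of 3 against 4 libraries allow. Relative to library totals without TMM factors, the sums were 1869, 1787 and 1687 CPM against 1752, 2008, 2320 and 2152 CPM, and they overlapped. *Il6st*, the gp130 partner of IL-27RA, was the 1 member at an unadjusted p under 0.05, at 110, 104 and 141 CPM against 165, 144, 200 and 159 CPM (log2 0.50 ± 0.19, SE). Its heterozygous libraries all lay above the intact ones, but the margin to intact replicate 3 was small. Without heterozygous replicate 3 or intact replicate 2 its unadjusted p passed 0.05. After PBS *Il6st* showed no such separation, with 142 and 111 CPM in intact and 89.3, 88.1 and 138 CPM in heterozygous HPC-1.

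*Jak1*, a kinase bound to gp130, was at 324, 320 and 214 CPM against 310, 375, 314 and 345 CPM. *Stat3*, a transcription factor activated through gp130, was at 189, 180 and 127 CPM against 170, 190, 251 and 236 CPM. The groups overlapped for both, although heterozygous replicates 3 and 4 were well above the intact range for *Stat3*, and intact replicate 3 was the lowest intact library for each. *Socs3*, a feedback inhibitor induced by STAT3, was at 10.8, 14.7 and 0 CPM against 20.4, 10.5, 16.5 and 21.4 CPM, which also overlapped. Over the whole list log2 differences ran from −0.90 (*Ebi3*) to 0.99 (*Socs3*), and the smallest adjusted p, that of *Il6st*, was 0.637 by the edgeR quasi-likelihood F-test (Benjamini-Hochberg adjusted).

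Further members of the list gave no separation. Among receptor chains and the second IL-27 subunit, the levels were *Il6ra* (51.1, 46.9 and 88.1 against 56.97, 77.4, 86.9 and 60.8 CPM), *Lifr* (3.49, 4.29 and 4.30 against 3.48, 6.56, 5.91 and 6.42 CPM) and *Ebi3* (6.10, 4.91 and 0 against 0, 3.50, 0.422 and 3.67 CPM). The 2 other kinases were *Jak2* (103, 89.9 and 58.9 against 85.7, 71.3, 147 and 98.2 CPM) and *Tyk2* (31.4, 37.7 and 28.4 against 38.3, 36.3, 43.9 and 48.9 CPM), and further STATs were *Stat2* (39.2, 27.9 and 32.2 against 26.97, 32.8, 50.2 and 47.4 CPM), *Stat5a* (128, 132 and 122 against 72.6, 137, 97.5 and 134 CPM) and *Stat5b* (182, 172 and 168 against 149, 184, 200.5 and 199 CPM). *Tyk2* was higher in 3 of 4 heterozygous libraries than in any intact one, with intact replicate 2 above heterozygous replicate 2. Inhibitors of the pathway were *Socs1* (0.872, 0.920 and 3.44 against 0, 1.31, 0 and 3.21 CPM), *Cish* (6.10, 3.07 and 0 against 3.48, 3.50, 2.95 and 4.74 CPM), *Pias1* (45.3, 47.8 and 51.1 against 64.4, 45.1, 59.5 and 44.9 CPM) and *Pias3* (12.8, 10.7 and 13.3 against 2.61, 17.5, 24.1 and 15.7 CPM), and the phosphatases were *Ptpn1* (67.4, 90.8 and 69.6 against 94.4, 82.2, 77.2 and 85.2 CPM), *Ptpn2* (53.8, 49.1 and 49.9 against 42.2, 41.1, 59.9 and 42.8 CPM), *Ptpn6* (220.3, 253 and 292 against 339, 334, 225 and 222 CPM) and *Ptpn11* (179.6, 155 and 113 against 227, 158, 159 and 161 CPM). The groups overlapped for each of these genes, and *Socs1*, *Cish* and *Ebi3* were near the floor in several libraries.

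For the renin-angiotensin system, HPC-1 held little or no transcript of the Ang II receptors. *Agtr1a*, *Agtr1b*, *Agtr2*, *Mas1*, *Agt* and *Ren1* were at 0 CPM in all 7 libraries, and 9 of the 15 members were at or under 3 counts in each of the 7. Of the 5 members tested 1 was at an unadjusted p under 0.05, and their median log2 difference was 0.34. That member was *Agtrap*, which encodes a protein that binds the type 1 angiotensin receptor, at 54.3, 49.1 and 20.2 CPM against 56.5, 71.3, 89.0 and 69.5 CPM (log2 0.78 ± 0.25, SE). Heterozygous replicate 1 was barely above intact replicate 1, and without intact replicate 3 the log2 difference was 0.47.

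Genes of S phase mostly had small negative differences, none of which passed the test. Of 30 members 29 had a negative log2 difference, with a median of −0.29 against 0.02 for all genes. At an unadjusted p under 0.05, 7 members were lower and 0 higher, and 4 had all heterozygous below all intact libraries. The list summed to 5203, 5741 and 5675 CPM in the intact libraries and to 5377, 5125, 3201 and 4445 CPM in the heterozygous ones. Heterozygous replicate 3 was lowest, while replicate 1 lay within the intact range (exact two-sided permutation p = 0.114). Relative to library totals without TMM factors, the sums were 5090, 5486 and 5693 CPM against 4721, 4987, 3338 and 4605 CPM, without overlap. *Mcm4*, a subunit of the replicative helicase, was at 301, 289 and 372 CPM against 242, 248, 206 and 236 CPM (log2 −0.46 ± 0.16, SE). *Rrm2*, which encodes the regulated subunit of ribonucleotide reductase, was at 76.4, 88.0 and 96.3 CPM against 60.9, 62.1, 60.8 and 59.1 CPM (log2 −0.52 ± 0.23, SE). Neither gene overlapped between the groups, and for *Rrm2* the heterozygous libraries were nearly equal. *Gins2*, another part of the helicase complex, was at 87.8, 87.1 and 144 CPM against 62.6, 96.2, 44.7 and 78.2 CPM (log2 −0.59), and *Tyms*, thymidylate synthase, at 61.6, 80.7 and 115 CPM against 80.0, 63.4, 30.8 and 54.1 CPM (log2 −0.58), both with overlap. In bulk RNA, fewer cells of a kind and less RNA per cell cannot be told apart.

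The S-phase counts depended on single libraries. No member was at an unadjusted p under 0.05 without intact replicate 3, although the median was −0.27. The count was 3 lower without heterozygous replicate 3 and 3 lower without heterozygous replicate 4. No member passed the edgeR quasi-likelihood F-test (Benjamini-Hochberg adjusted), with a smallest adjusted p of 0.637. After PBS the median of the list was −0.13, with 0 members at an unadjusted p under 0.05.

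**Figure D2:**
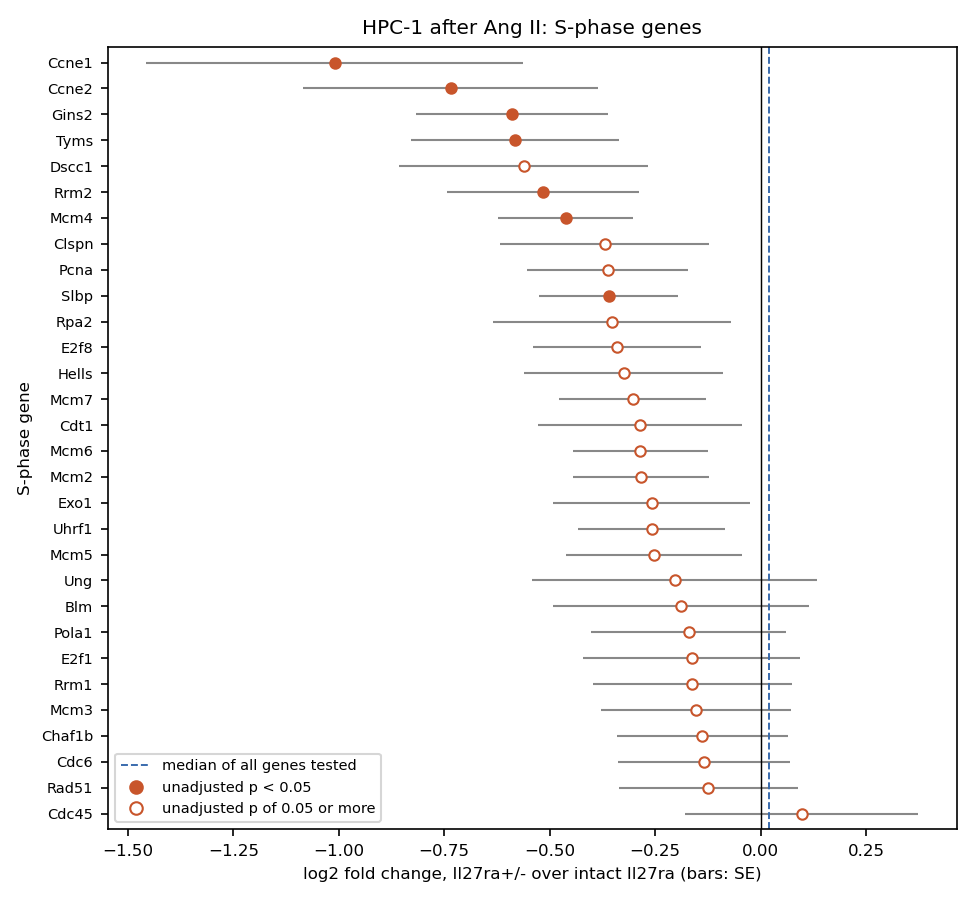
Log2 fold change of each of the 30 S-phase genes, heterozygous over intact HPC-1 after Ang II (points; bars, SE of the fit; filled, unadjusted p under 0.05; dashed line, the median of 0.02 over all genes tested). All genes but *Cdc45* lie below 0, and none has an adjusted p under 0.05.

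Of 33 genes of the G2 and M phases 0 were at an unadjusted p under 0.05, and the median log2 difference was 0.03. Without intact replicate 1 there were 2 lower and without intact replicate 2 there were 2 higher, and the median was 0.13 without intact replicate 3 and 0.20 without heterozygous replicate 4. *Mki67*, the proliferation marker Ki-67, was at 1891, 2244 and 3399 CPM against 3064, 2046, 2631 and 1341 CPM, so the groups overlapped widely. Among 19 cyclins, CDKs, E2F and MYC-network genes, 1 was higher and 2 lower, with a median of −0.12. The higher one was *Mxd4*, a MAX-binding antagonist of MYC, at 72.4, 54.6 and 38.3 CPM against 66.5, 88.4, 150 and 96.5 CPM (log2 0.86 ± 0.25, SE). Heterozygous replicate 1 lay inside the intact range, and without heterozygous replicate 3, the highest, the log2 difference was 0.60. The lower ones were *Ccnd2*, a D-type cyclin (305, 316 and 247 against 185, 255, 233 and 211 CPM, log2 −0.39), and *E2f3*, an activator of G1 to S transcription (57.2, 81.9 and 92.0 against 63.9, 43.3, 46.8 and 47.4 CPM, log2 −0.61). In both genes 3 of 4 heterozygous libraries were below the intact ones.

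*Myc*, the transcription factor that promotes growth and division, was at 457, 491 and 639 CPM against 293, 444, 430 and 511 CPM, and *Ccnd1*, another D-type cyclin, at 27.3, 27.3 and 43.0 CPM against 10.9, 38.9, 22.8 and 16.2 CPM. Both overlapped. Of the 5 CDK inhibitors tested, 2 were higher at an unadjusted p under 0.05 and the median was 0.17. They were *Cdkn2c* (11.9, 16.9 and 8.17 against 16.5, 20.1, 27.4 and 17.9 CPM, log2 0.72) and *Cdkn2d* (4.07, 9.20 and 3.44 against 15.7, 9.62, 16.5 and 8.25 CPM, log2 1.14), which encode p18 and p19 inhibitors of CDK4 and CDK6. Each had 1 heterozygous library within the intact range, and neither remained at an unadjusted p under 0.05 without intact replicate 3, intact replicate 1 or heterozygous replicate 3. *Cdkn1a*, which encodes p21, was at 5.81, 6.75 and 11.2 CPM against 4.78, 11.4, 4.22 and 8.10 CPM, and *Trp53* at 138, 140 and 147 CPM against 146, 147, 129 and 155 CPM, so neither differed beyond the spread of its replicates. In the list of *Trp53* and its targets 16 genes were tested, 1 was higher and the median was 0.06. The count was 3 without intact replicate 1 or heterozygous replicate 1 and with DESeq2, and 2 without heterozygous replicate 2 or 3. The 1 gene was *Sesn1*, a stress-induced inhibitor of mTORC1, at 45.9, 47.2 and 18.5 CPM against 62.2, 68.7, 42.6 and 70.1 CPM (log2 0.70), with heterozygous replicate 3 inside the intact range and an unadjusted p above 0.05 without intact replicate 3. With the intestinal list as a covariate, chosen after seeing the data and tied to genotype in these libraries, its log2 difference was −0.84 and the list median −0.59.

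Interferon-stimulated genes were close to the background in calls at an unadjusted p under 0.05. Of the 40 tested, 30 had a positive log2 difference, against 6831 of 13199 genes. Of 40 tested members 2 were higher and 1 lower at an unadjusted p under 0.05, with a median of 0.17, and without intact replicate 3 the counts were 0 and 2 with a median of 0.03. Without heterozygous replicate 4 they were 3 and 3, and without heterozygous replicate 1 or 2 they were 4 and 0. The guanylate-binding protein genes *Gbp2* (27.3, 28.5 and 19.8 against 38.7, 31.5, 61.6 and 29.5 CPM, log2 0.67) and *Gbp3* (97.3, 148 and 89.0 against 242, 159, 130 and 143 CPM, log2 0.59) were the higher ones. *Ifit2*, a sensor of viral RNA, was the lower one, at 30.2, 41.1 and 63.6 CPM against 23.5, 27.1, 32.9 and 33.5 CPM (log2 −0.61). Among the 3, only the groups of *Gbp2* did not overlap. After PBS, 9 of the 40 were higher and 0 lower, with a median of 0.40, where 321 of all 13199 genes were higher and 310 lower. The interaction of genotype and agent, which tests the difference between the Ang II and PBS comparisons, had 1 member higher and 2 lower at an unadjusted p under 0.05 and none at an adjusted p under 0.05 by the edgeR quasi-likelihood F-test (Benjamini-Hochberg adjusted).

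Antigen presentation genes were read by class, and the classes were not tested against each other. Of 16 MHC class I pathway genes 1 was lower and 0 higher, with a median of 0.06. The lower gene was *Erap1*, the aminopeptidase that trims peptides, at 165, 176 and 204 CPM against 148, 144, 108 and 138 CPM (log2 −0.43 ± 0.16, SE), with no overlap. On the other side, 2 class I genes lay wholly above the intact libraries at unadjusted p-values above 0.05. Without heterozygous replicate 1 the list had 5 higher and 1 lower (all genes, 615 and 537). Without intact replicate 3 it had 0 and 0, and the unadjusted p of *Erap1* passed 0.05. The 8 MHC class II pathway genes tested had a median of 0.74, with 7 positive, but a median of −0.56 with the intestinal list as a covariate, chosen after seeing the data. Their sum was 95.0, 95.1 and 91.1 CPM in the intact and 104, 144, 142 and 136 CPM in the heterozygous libraries, which did not overlap, at a ratio of 1.40 (exact two-sided permutation p = 0.0571, the smallest possible). Relative to library totals without TMM factors, it was 92.95, 90.84 and 91.40 CPM against 90.88, 140, 148 and 141 CPM, which overlapped. *H2-Ob*, part of the peptide-exchange modulator H2-O of B cells, was the 1 member at an unadjusted p under 0.05, at 18.3, 15.3 and 22.8 CPM against 15.7, 39.8, 48.5 and 28.9 CPM (log2 0.82). Heterozygous replicate 1 was within the intact range for *H2-Ob* and the nearest to it in the sum. Without intact replicates 1 or 2, or heterozygous replicates 2 or 3, 0 members were at an unadjusted p under 0.05, and without heterozygous replicate 4 there were 2.

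Of 19 NF-κB and inflammation genes 2 were higher and 0 lower, with a median of 0.12. *Nfkb2*, which encodes the p100 precursor, was at 14.2, 20.2 and 15.9 CPM against 25.7, 20.6, 45.6 and 24.0 CPM (log2 0.78), a narrow separation. *Il1rap*, the accessory chain of the IL-1 receptor, was at 17.7, 10.7 and 6.02 CPM against 14.4, 24.1, 24.1 and 15.9 CPM (log2 0.74), with overlap. Without heterozygous replicate 3 no gene of the list was at an unadjusted p under 0.05, and 1 was without intact replicate 2 or 3. Without intact replicate 1 or heterozygous replicate 1, 3 were higher. Without heterozygous replicate 2, 1 was higher and 1 lower.

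Growth factor receptors included members on both sides. Of 14 tested, 3 were higher and 2 lower at an unadjusted p under 0.05, with a median of 0.43. *Il3ra*, the alpha chain of the IL-3 receptor, was at 6.10, 6.75 and 4.30 CPM against 13.5, 11.4, 20.3 and 16.7 CPM (log2 1.42 ± 0.53, SE). Its groups did not overlap, and its unadjusted p stayed under 0.05 whichever of the 7 libraries was left out. *Csf3r*, the G-CSF receptor, was at 136, 141 and 113 CPM against 111, 148, 353 and 229 CPM (log2 0.69 ± 0.27, SE). Heterozygous replicate 1 was below all intact libraries and replicate 3 far above them, and without replicate 3 the log2 difference was 0.33. *Csf1r*, the M-CSF receptor, was the other higher one. *Il1rl1*, the IL-33 receptor, was at 32.8, 30.1 and 18.5 CPM against 6.96, 7.44, 17.3 and 17.7 CPM (log2 −1.11), below the intact range in all 4 libraries. *Igf1r*, the IGF-1 receptor, was at 170, 159 and 208 CPM against 94.4, 140, 135 and 165 CPM (log2 −0.42), with overlap. *Kit*, the most abundant of the list, was at 826, 668 and 649 CPM against 516, 693, 1023 and 585 CPM, and its groups overlapped. Without intact replicate 3 the counts of the list were 1 higher and 1 lower, as they were without heterozygous replicate 3. They were 4 and 0 without intact replicate 1 or heterozygous replicate 1, 3 and 1 without intact replicate 2, 2 and 0 without heterozygous replicate 2, and 2 and 3 without heterozygous replicate 4.

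Stem cell genes gave 2 higher and 1 lower of 23 tested, with a median of 0.30. *Mecom*, which encodes the stem cell factor EVI1, was at 27.9, 14.1 and 5.16 CPM against 28.3, 33.2, 45.6 and 27.5 CPM (log2 1.07), and *Hlf*, a transcription factor of immature cells, at 95.0, 71.1 and 82.9 CPM against 71.3, 116, 224 and 97.2 CPM (log2 0.61). Intact replicate 1 reached the heterozygous range for *Mecom*, and heterozygous replicate 3 stood above the others for both. *Ctnnal1*, alpha-catulin, was the lower one, at 12.5, 11.96 and 27.9 CPM against 10.003, 5.25, 5.06 and 12.5 CPM (log2 −1.05). Without intact replicate 3 the list had 0 higher and 2 lower (all genes, 183 and 213). Without intact replicate 1 it had 6 and 1 (all genes, 626 and 573), and without heterozygous replicate 4 it had 2 and 3 (all genes, 515 and 590). The most abundant member, *Etv6*, was at 627, 639 and 695 CPM against 611, 635, 685 and 497 CPM.

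In the multipotent and lymphoid-primed progenitor list, 1 of 17 tested members was higher and 0 lower, with a median of 0.32. That member was *Dntt*, the terminal transferase of early lymphoid cells, at 35.7, 31.3 and 88.5 CPM against 59.6, 246, 116 and 104 CPM (log2 1.35 ± 0.54, SE). Intact replicate 3 lay above heterozygous replicate 1, and without that intact library the counts were 2 higher and 0 lower. They were 4 and 0 without heterozygous replicate 1, 0 and 0 without heterozygous replicate 2, and 2 and 0 without intact replicate 1 or heterozygous replicate 4. *Cd34* was the most abundant member, at 596, 592 and 701 CPM against 427, 741, 670 and 475 CPM. After PBS 9 of the 17 were higher and 0 lower, with a median of 0.69, against 321 and 310 of 13199 genes and a median of 0.01. For the interaction with the agent the list had 1 member lower and 0 higher at an unadjusted p under 0.05.

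The granulocyte and monocyte list had 5 members higher and 1 lower of 26 tested, with a median of 0.23. The log2 difference was positive for 16 of the 26 and negative for 10. Beside *Itgam* and *Csf3r*, described above, the higher ones were *Ly6c2*, *Fcgr3* and *Csf1r*. *Ly6c2*, the Ly6C antigen of monocytes, was at 5.23, 12.9 and 5.59 CPM against 33.9, 45.9, 46.4 and 9.32 CPM (log2 2.07 ± 0.74, SE), so that heterozygous replicate 4 fell among the intact libraries. *Camp*, cathelicidin of late granulocyte granules, was the lower one, at 0, 2.15 and 5.59 CPM against 0 CPM in each heterozygous library. Intact replicate 1 also lacked it, so that call rests on 2 intact libraries and is a description. *S100a8*, *S100a9*, *Ltf*, *Ngp*, *Lcn2*, *Mmp8* and *Mmp9* had negative log2 differences too, between −3.08 and −0.32, at unadjusted p-values above 0.05. They are named after their values were seen. *Mpo*, myeloperoxidase, was the most abundant member, at 3998, 5187 and 5591 CPM against 5797, 5496, 5507 and 4539 CPM, and it did not separate the groups. Without intact replicate 3 the counts were 1 higher and 0 lower, without intact replicate 1 they were 2 and 1, and without heterozygous replicate 3 they were 2 and 2.

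The same list went the other way after PBS. There 0 members were higher and 10 lower at an unadjusted p under 0.05 (321 and 310 of 13199 genes), with a median of −0.92. For the interaction of genotype and agent, 11 of the 26 members were higher and 0 lower, with a median of 1.22 against −0.00 for all genes, where 283 of 13199 were higher. No member passed the edgeR quasi-likelihood F-test (Benjamini-Hochberg adjusted) for that interaction, although 9 genes did when libraries over 4000000 counts were left out, all of them higher and *Mpo*, *Elane*, *Prtn3*, *Ly6c2* and *Ccr2* among them. The Ang II and PBS comparisons share no library.

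Erythroid genes varied among replicates. Of 18 tested, 13 were negative and the median was −0.79, and 1, *Tfrc*, was lower at an unadjusted p under 0.05. The count was 3 without heterozygous replicate 4 and 2 without intact replicate 1, heterozygous replicate 2 or heterozygous replicate 3, and with the intestinal list as a covariate, chosen after seeing the data, the median was 0.05. The list summed to 662, 548 and 735 CPM in the intact and to 283, 602, 531 and 387 CPM in the heterozygous libraries, which overlapped (exact two-sided permutation p = 0.114). After PBS the median was −1.11, with 2 lower members. Of the 9 megakaryocyte genes tested 1 was lower, *Gp1ba*, a platelet adhesion receptor (11.3, 10.4 and 49.0 against 10.4, 6.999, 2.95 and 7.49 CPM, log2 −1.74). Intact replicate 3 stood far above the rest for *Gp1ba*, whose log2 difference was −0.64 without it, and the median of the list was −0.01.

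Few lymphoid and macrophage markers were present. B lymphoid genes had 4 of 15 members tested, 0 at an unadjusted p under 0.05 and a median of 0.54. That count was not stable, with 3 of the 4 higher without heterozygous replicate 4, 1 without intact replicate 2, intact replicate 3, heterozygous replicate 1 or heterozygous replicate 3, and 2 with DESeq2 or upper-quartile scaling. *Ighm*, the most abundant, was at 68.9, 81.9 and 161 CPM against 136, 211, 198 and 91.8 CPM, while *Pax5*, *Vpreb3*, *Ms4a1* and *Fcmr* were at 0 CPM in all 7 libraries. T and NK cell genes had 4 of 15 tested, 1 lower (*Cd4*, at 0.581, 0.920 and 11.6 CPM against 0, 1.75, 0 and 1.22 CPM) and a median of −0.80, with *Cd3e*, *Cd3g* and *Trbc2* at 0 CPM throughout. The lower call was lost without intact replicate 3 or heterozygous replicate 1, 3 or 4, and the median was −0.25 without that intact library and −1.42 without heterozygous replicate 4. Macrophage and dendritic cell genes had 6 of 14 tested, 0 at an unadjusted p under 0.05 and a median of 0.03.

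Markers of eosinophils, mast cells and basophils were at low levels, and none passed the edgeR quasi-likelihood F-test (Benjamini-Hochberg adjusted) in the main fit. With no filter on low counts, *Epx*, counted in intact replicate 3 alone, had an adjusted p of 0.0045 by the same test. Of 17 members 8 were tested, and 5 of the 8 were lower and 0 higher at an unadjusted p under 0.05. Among the 5, *Prg2*, *Epx* and *Ear2* were at or under 3 counts in every heterozygous library and could be tested only because intact libraries held them, so the counts are a description. The median log2 difference was −1.98, or −1.42 with genes at or under 3 counts in a group set to their bound. It was −0.83 without intact replicate 3 and −4.43 without heterozygous replicate 4, so its size rested on single libraries. The list summed to 133, 110 and 110 CPM in the intact and to 73.9, 57.3, 93.3 and 76.2 CPM in the heterozygous libraries (exact two-sided permutation p = 0.0571, the smallest possible). The sums did not overlap, and *Cpa3*, mast cell carboxypeptidase, made up much of them at 84.6, 58.9 and 31.8 CPM against 35.2, 31.5, 59.1 and 35.6 CPM. *Hdc*, the histamine-forming enzyme and the second most abundant member, went the other way at 19.8, 26.7 and 4.73 CPM against 34.8, 21.9, 26.6 and 23.4 CPM, with overlap, and is named after its values were seen. *Ms4a2*, a chain of the IgE receptor, was at 9.59, 8.28 and 17.2 CPM against 0.435, 0.437, 0 and 7.03 CPM. The eosinophil granule genes *Ear2* (2.62, 0 and 4.73 against 0, 0, 0 and 0.153 CPM) and *Prg2* (2.62, 0.613 and 0 against 0, 0, 0 and 0 CPM) were at or near 0 in all heterozygous libraries, but intact replicate 2 lacked the first and intact replicate 3 the second. *Epx*, eosinophil peroxidase, was at 26.6 CPM in intact replicate 3 and at 0 CPM in the other 6 libraries, and *Mcpt4* and *Ear1* were at 0 CPM in all 7. The part of such cells in the result was not tested. Without intact replicate 3 the list had 0 higher and 2 lower, and the same counts followed without heterozygous replicate 1 or 2, while 3 were lower without intact replicate 1 or heterozygous replicate 4.

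By members whose groups did not overlap, intestinal epithelial genes had the widest separation of any list. The sort gate does not select for such genes. Of 40 members 20 were tested, and 16 of the 20 were lower and 0 higher at an unadjusted p under 0.05, with 16 entirely below the intact libraries. Only genes that some group expressed could be tested, so these counts are a description. The median log2 difference was −4.50, or −2.70 with 11 genes at or under 3 counts in 1 group set to their bound. *Cdh17*, an intestinal cadherin, was at 3.78, 4.60 and 22.3 CPM against 0, 0.437, 0 and 0.306 CPM, and *Pigr*, the receptor that carries IgA across epithelium, at 8.14, 4.91 and 11.6 CPM against 0, 0, 0.844 and 0.458 CPM. *Agr2*, a protein disulfide isomerase of mucus-secreting cells described as an inhibitor of the p53 pathway, was at 3.20, 4.60 and 30.9 CPM against 0, 0, 1.27 and 0 CPM. In each of these genes all 3 intact libraries held the transcript, with intact replicate 3 the highest, and the heterozygous libraries were at or near 0.

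The summed level of the whole intestinal list was 687, 609 and 920 CPM in the intact and 531, 432, 757 and 511 CPM in the heterozygous libraries. Those sums overlapped, and *Muc13*, a transmembrane mucin and the most abundant member, was at 479, 422 and 343 CPM against 454, 385, 628 and 461 CPM. Without *Muc13* the remaining members summed to 208, 188 and 577 CPM against 76.5, 46.8, 129 and 49.6 CPM, with no overlap. Members with at least 1 count numbered 33, 32 and 26 of 40 in the intact and 4, 7, 16 and 13 in the heterozygous libraries, so the transcripts were scarce even in the deepest library. The transcription factor genes *Cdx1* and *Cdx2*, as well as *Fabp1* and *Guca2b*, were at 0 CPM in all 7 libraries. Leaving out intact replicate 3 gave 13 members lower and 0 higher. In *Apoe*-/-*Il27ra*-/- HPC-1 after Ang II 15 of the 20 were lower against the same intact libraries at an unadjusted p under 0.05 (all genes, 384 of 13199), and after PBS 7 of the 20 were lower in heterozygous HPC-1 (all genes, 310), with a median of −2.55. In LT-HSC after Ang II, 14 of the 31 members tested there were lower in heterozygous cells at an adjusted p under 0.05 in the edgeR fit of LT-HSC (quasi-likelihood, Benjamini-Hochberg), against 36 of 16365 genes, while the 2 cell types were tested with different members and fits. The part of intestinal cells or RNA in the results was not tested.

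**Figure D3:**
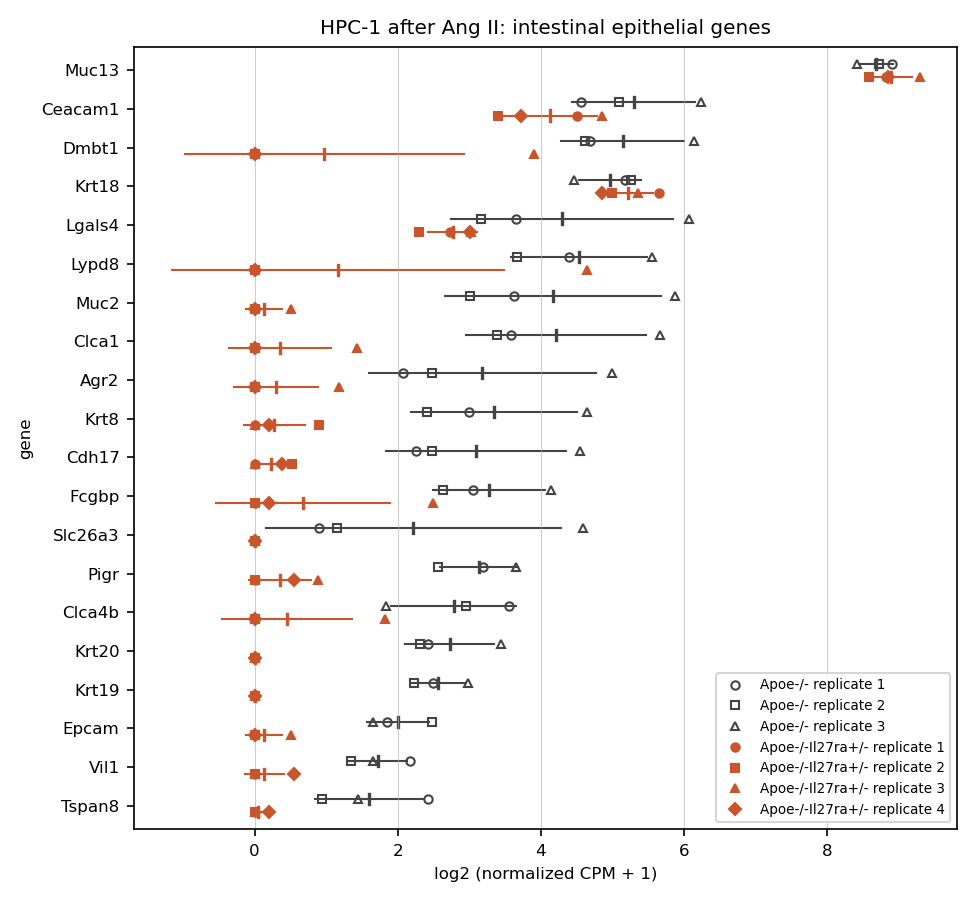
Levels of the 20 tested intestinal epithelial genes in each library of HPC-1 after Ang II, as log2 of normalized CPM plus 1 (points, 3 *Apoe*-/- and 4 *Apoe*-/-*Il27ra*+/- libraries; vertical ticks, group means; horizontal bars, SD). For 16 genes every heterozygous library lies below every intact one, and *Muc13*, *Krt18*, *Ceacam1* and *Lypd8* overlap.

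Most members of the other tissue lists could not be tested. Of 19 pancreatic acinar genes 1 was tested, *Cela1*, at 6.10, 2.45 and 5.16 CPM against 1.30, 0.875, 3.80 and 1.53 CPM. The list summed to 7.55, 5.52 and 10.7 CPM in the intact and 1.74, 0.875, 3.80 and 1.83 CPM in the heterozygous libraries, without overlap and with *Prss1*, *Cpa1* and *Pnlip* at 0 CPM throughout, and its part in the results was not tested. Airway epithelium had 2 of 15 genes tested, with a median of −1.29 and 0 at an unadjusted p under 0.05, and hepatocytes had 4 of 20, with a median of −0.06 and 0. Keratinocyte genes had 4 of 19 tested, with a median of −0.54, 1 higher and 1 lower. These were the desmosomal genes *Jup* (5.23, 5.83 and 0 against 6.52, 9.62, 16.0 and 14.5 CPM, log2 1.62) and *Dsp* (9.30, 3.68 and 15.5 against 7.39, 2.62, 1.69 and 1.22 CPM, log2 −1.58), both above an unadjusted p of 0.05 without intact replicate 3. *Dsp* was not under 0.05 in 5 of the 7 fits that left out 1 library. Smooth muscle and endothelial genes had 8 of 20 tested, with a median of 0.53, or 0.43 with bounds, and 0 at an unadjusted p under 0.05.

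**Figure D4:**
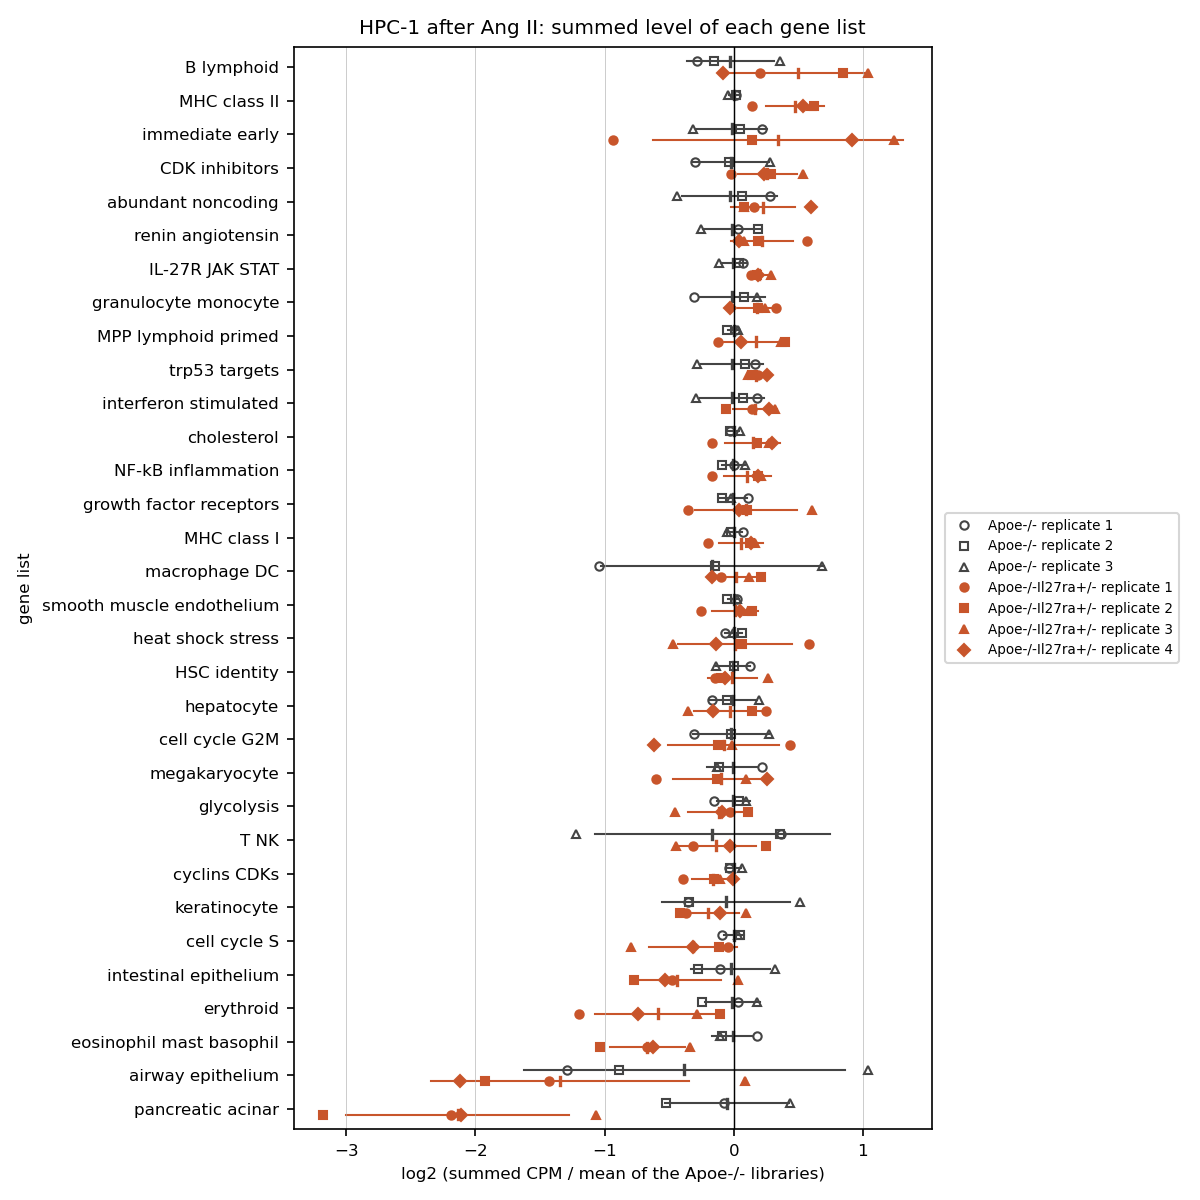
Summed CPM of each gene list in the 7 libraries of HPC-1 after Ang II, as log2 of the ratio to the mean of the 3 *Apoe*-/- libraries (points; vertical ticks, group means; horizontal bars, SD). The IL-27R JAK-STAT and MHC class II sums of all 4 heterozygous libraries lie above the intact ones, and the eosinophil, mast cell and basophil and pancreatic acinar sums lie below. Scaled by library totals without TMM factors, the JAK-STAT and MHC class II sums overlapped between the groups.

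No stress or metabolic list had more than 1 member at an unadjusted p under 0.05. Immediate early genes had 0 of 16 at an unadjusted p under 0.05 and a median of 0.51, and their sum of 467, 416 and 322 CPM in the intact and 210, 444, 951 and 756 CPM in the heterozygous libraries spread widely within the heterozygous group. *Jun* followed that pattern, at 175, 140 and 104 CPM against 66.1, 192, 416 and 299 CPM, with heterozygous replicate 1 the lowest and replicate 3 the highest. Of the immediate early genes 12 of 16 were positive. Without heterozygous replicate 1, 5 immediate early and 4 cholesterol genes were higher at an unadjusted p under 0.05 (all genes, 615). Heat shock genes had 0 of 14 at an unadjusted p under 0.05 (median 0.16), cholesterol genes 0 of 24 (median 0.19) and glycolysis genes 0 of 16 (median −0.08). For heat shock genes the counts were 2 higher without intact replicate 1 and with DESeq2, 1 higher without intact replicate 2, heterozygous replicate 2 or heterozygous replicate 4, and 1 lower without heterozygous replicate 1. Among 12 abundant noncoding RNAs 1 was lower, *Gas5*, a snoRNA host gene, at 534, 482 and 722 CPM against 334, 437, 498 and 474 CPM (log2 −0.41), and the median was 0.23. Heterozygous replicate 3 overlapped intact replicate 2 for *Gas5*, and its unadjusted p passed 0.05 without intact replicate 3 or heterozygous replicate 1. The median of the noncoding list was 0.00 without intact replicate 3 and −0.21 without heterozygous replicate 4, so it had no stable direction. The median of the 6 sex-linked genes was −0.63, with 0 at an unadjusted p under 0.05. Of 9 tested genes that the study names, 2 were higher (*Il3ra* and *Csf3r*) and 1 lower (*Agr2*), with a median of 0.02.

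The most abundant members of the remaining lists overlapped between the groups, with 2 exceptions. In proliferation and signaling lists these were *Mcm6* (681, 675 and 645 against 558, 622, 373 and 636 CPM), *Cdk6* (633, 573 and 606 against 514, 473, 614 and 626 CPM), *Cdkn1b* (57.5, 61.9 and 88.97 against 57.4, 79.6, 94.5 and 79.3 CPM), *Nfkb1* (164, 146 and 136 against 128, 167, 173 and 180.0 CPM) and *Parp14* (174, 169 and 150.4 against 171, 143, 189.9 and 180.1 CPM). In stress and metabolic lists they were *Hsp90ab1* (4986, 5730.0 and 4698 against 7636, 5603, 3378 and 4518 CPM), *Pkm* (461, 554 and 577 against 678, 647, 403 and 521 CPM), *Srebf2* (149.6, 143 and 143 against 104, 205, 196 and 189.7 CPM) and *Rn7sk* (12427, 10338 and 6316 against 9086, 12603, 10299 and 14779 CPM). In antigen presentation and cell lists they were *H2-DMa* (46.2, 40.5 and 32.2 against 33.9, 51.2, 38.4 and 55.9 CPM), *H2-K1* (693.0, 654 and 547 against 693.3, 849.5, 788 and 774 CPM), *Ctsg* (214, 299 and 246 against 540.2, 326, 226 and 245 CPM), *Nfe2* (162, 118 and 138 against 86.98, 154, 173 and 178 CPM), *Nkg7* (34.9, 42.01 and 0.860 against 17.8, 33.7, 23.2 and 29.02 CPM) and *Bst2* (9.59, 17.2 and 38.7 against 12.2, 17.5, 18.6 and 20.9 CPM), and in the lists of other tissues *Ass1* (89.2, 116 and 139 against 126, 121, 82.7 and 71.8 CPM), *Ltf* (1.16, 8.59 and 37.4 against 7.39, 0.875, 7.60 and 0.611 CPM) and *Pecam1* (173, 182 and 205 against 173, 191, 185 and 166 CPM). The exceptions were *H2-K1*, a classical MHC class I gene, whose heterozygous libraries all lay above the intact ones, and *Mcm6*, a helicase subunit, whose heterozygous libraries all lay below them. Both margins were very small, at unadjusted p-values above 0.05. *Nkg7* and *Ltf* were set apart by intact replicate 3, the lowest library for the first and the highest for the second. The Y-linked genes *Ddx3y* (86.6, 67.2 and 125 against 100.5, 52.9, 75.1 and 0 CPM), *Eif2s3y* (38.9, 35.3 and 111 against 45.2, 32.8, 57.8 and 0 CPM), *Kdm5d* (60.7, 60.7 and 45.6 against 49.6, 58.2, 47.3 and 0 CPM) and *Uty* (65.7, 42.3 and 43.4 against 50.02, 26.7, 60.3 and 0 CPM) were absent only from heterozygous replicate 4, and *Tsix*, antisense to *Xist*, was low throughout at 0, 3.37 and 7.31 CPM against 2.61, 0, 0 and 5.65 CPM. *Klf5*, named by the study and not tested here, was at 2.62, 3.37 and 0 CPM against 2.17, 0, 0 and 0.917 CPM.

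Further counts at an unadjusted p under 0.05 moved when 1 library was left out. The IL-27 receptor and JAK-STAT list had 2 higher without intact replicate 1, heterozygous replicate 1 or heterozygous replicate 2. MHC class I genes had 2 higher and 1 lower without intact replicate 1, and 1 and 3 without heterozygous replicate 3. The cyclin and CDK list had 1 higher and 0 lower without intact replicate 2, and 1 and 1 without intact replicate 1, intact replicate 3, heterozygous replicate 1 or heterozygous replicate 4. CDK inhibitors had 1 higher without heterozygous replicate 1 or 2, and stem cell genes 0 higher and 1 lower without intact replicate 2 or heterozygous replicate 3. Megakaryocyte genes had 2 lower without heterozygous replicate 4, hepatocyte genes 1 higher without heterozygous replicate 2, 3 or 4, and smooth muscle and endothelial genes 1 higher without intact replicate 1. None of these lists kept its counts in all 7 such fits.

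The exact permutation test was run on 35 measures of the libraries, namely depth, diversity and list sums. None passed after Benjamini-Hochberg adjustment, and none could, because 35 assignments allow no p below 0.0571. The share of counts in the 50 most abundant genes was 19.03%, 19.5% and 15.4% in the intact and 21.7%, 18.7%, 15.7% and 16.6% in the heterozygous libraries (p = 0.914 by the exact permutation test). Thinned to the lowest total, the libraries held 15227, 15377 and 13043 genes with a count in the intact and 13561, 16182, 13445 and 16391 in the heterozygous group (exact permutation p = 0.800). Neither measure separated the genotypes.

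The same genotypes were also compared without Ang II and in LT-HSC. After PBS, with 3 heterozygous and 2 intact HPC-1 libraries, the edgeR quasi-likelihood F-test (Benjamini-Hochberg adjusted) called 0 of 13199 genes (0%), with 321 higher and 310 lower at an unadjusted p under 0.05. DESeq2 called 6 there and limma-voom 0. Without PBS heterozygous replicate 2 the unadjusted count was 326 in place of 631. Leaving out a PBS intact library leaves 1 in that group, so no counts are given for those fits. The interaction of genotype and agent also had 0 of 13199 genes (0%) at an adjusted p under 0.05 by the same test, with 283 positive and 322 negative at an unadjusted p under 0.05, while DESeq2 called 1 and limma-voom 0. The other edgeR fits were not all at 0 for this interaction, with 9 genes in libraries under 4000000 counts, 8 with no filter on low counts and 1 with the replicate block.

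The interaction of genotype and cell type, fitted over all 36 libraries, passed the edgeR quasi-likelihood F-test (Benjamini-Hochberg adjusted) for 21 of 18013 genes (0.117%), 20 negative and 1 positive. The positive gene was *Triobp*, which encodes a protein that binds and stabilizes F-actin, named here with *Nufip2* after their values were seen. On the scale of all 36 libraries *Triobp* was at 72.1, 74.2 and 54.6 CPM in intact and at 107, 104, 110 and 87.7 CPM in heterozygous HPC-1, but at 173 and 131 CPM in the 2 intact and 90.5, 112, 97.1 and 112 CPM in the 4 heterozygous LT-HSC libraries. It thus separated the genotypes in opposite directions in the 2 cell types (log2 0.58 in HPC-1, interaction log2 1.17, adjusted p of 0.042 by edgeR's quasi-likelihood test). *Nufip2*, which encodes an RNA-binding partner of FMRP, was at 189, 199 and 217 CPM against 165, 164, 144 and 161 CPM in HPC-1, and at 128 and 103 CPM against 161, 195, 190 and 191 CPM in LT-HSC, again opposite (log2 −0.37 in HPC-1, interaction log2 −1.02, adjusted p of 0.042 by the same test). For 14 of the 21 genes both intact LT-HSC libraries were at or under 3 counts, so that those interactions rest on near-absent transcripts in LT-HSC. In HPC-1 alone 5 of the 21 were at an unadjusted p under 0.05. The number of genes depended on the method, with 58 by DESeq2, 129 with no filter on low counts and 10 with the replicate block. It was 1 by limma-voom, 1 in libraries under 4000000 counts and 0 with only the groups compared. Whether same-numbered HPC-1 and LT-HSC libraries came from the same mice is not recorded in the labels and was not tested. The number also depended on single libraries, here given for fits that left at least 2 in each group. It was 8 without HPC-1 heterozygous replicate 2, 9 without LT-HSC heterozygous replicate 3, 10 without HPC-1 intact replicate 2, 12 without HPC-1 intact replicate 1, 12 without LT-HSC heterozygous replicate 2 and 13 without LT-HSC heterozygous replicate 1.

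These values come from 3 intact and 4 heterozygous libraries of sorted cells in bulk, so they give neither the share of cells in a state nor the level within a cell. A p above its threshold does not show that a gene was equal between the genotypes, and with 0 genes passing, the counts at an unadjusted p under 0.05 hold false calls that cannot be told from true ones. Intact replicate 3 carried much of the separation in many lists, and which animals and sexes the libraries came from is not recorded in the labels. Only heterozygous replicate 4 had high *Xist* and no Y-linked counts, so this pattern was unbalanced between the groups. The main fit held no term for sex. With the Y-linked level as a covariate, edgeR called 0 genes, with 501 higher and 689 lower at an unadjusted p under 0.05. The heterozygous deletion was present in all tissues throughout life, and a single time point was sampled.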

How the data were processed

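Per the sample labels, total RNA of sorted HPC-1 and LT-HSC was sequenced in 36 libraries. The authors aligned reads with STAR to mm10 and estimated counts per gene with RSEM over Ensembl transcripts, keeping samples with at least 20% exonic reads, and tested pairs of groups with DESeq2 and gender as a factor. The submitters' processing notes name Bowtie2 and RSEM 1.2.31 instead. The deposited table holds expected counts in whole numbers for 38887 genes. Counts of 19 HPC-1 libraries in 6 groups were filtered with filterByExpr, scaled with TMM and fitted with edgeR 4.0.16 (robust quasi-likelihood test, Benjamini-Hochberg adjustment, threshold 0.05) in R 4.3.3; the cell type interaction used all 36 libraries in 12 groups. Alternatives used DESeq2 1.42.0 and limma 3.58.1, other filters, scalings and sets of libraries. The named genes were *Il27ra* and its pathway list, up to 8 genes per direction whose groups do not overlap with a mean of at least 10 CPM, and, for each list, the most abundant member and up to 4 members with the smallest unadjusted p under 0.05, and the genes the study names. The members and lists were chosen with earlier results of these data known.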

Additional observations from a re-analysis of the deposited data

Results flagged for a closer look

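In the 4 heterozygous HPC-1 libraries after Ang II, 120 gene levels and library measures were checked for a library far from the other 3, and 14 had one, where chance alone gives about 1 in 20. *Nnt* was at 108 CPM in replicate 2 and *Cfap36* at 63.5 CPM in replicate 1. In replicate 3, *Clca1* was at 1.69 CPM, *Muc2* at 0.422 CPM, *Agr2* at 1.27 CPM and *Cpa3* at 59.1 CPM, and the airway epithelial sum at 21.1 CPM. In replicate 4, *Ms4a2* was at 7.03 CPM, *Ear2* at 0.153 CPM and *Xist* at 3379 CPM, the noncoding RNA sum was 38961 CPM and the total 6318379 counts. In replicate 1, the MHC class I sum of 2844 CPM and the NF-κB sum of 553 CPM lay below the other 3.

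A difference between cell types was found for 21 genes, whose genotype effect after Ang II differed between HPC-1 and LT-HSC by the interaction test of edgeR, among them *Triobp* (log2 1.17) and *Nufip2* (log2 −1.02). The count was 0 with only the groups compared and 1 with limma-voom or in libraries under 4000000 counts.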

How the results depend on the processing

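Of 49 genes whose log2 difference is printed, 42 kept its direction in every alternative, and 18 kept an unadjusted p under 0.05 without each of the 7 libraries in turn. The main comparison had 0 genes at an adjusted p under 0.05 with edgeR (975 at an unadjusted p under 0.05), also in every fit that left out 1 library, where 396 to 1257 genes were at an unadjusted p under 0.05, with the replicate block (1007) and with only the groups compared (374), but 2 with DESeq2, 13 with limma-voom and 33 with no filter on low counts. After PBS the count of 0 became 6 with DESeq2, 7 in libraries under 4000000 counts, 21 with no filter, 1 with only the groups compared and 2 with replicate block. For the interaction with the agent it became 1 with DESeq2, 9 in libraries under 4000000 counts, 8 with no filter and 1 with the replicate block. The interaction with the cell type, 21 genes, became 58 with DESeq2, 1 in libraries under 4000000 counts, 1 with limma-voom, 129 with no filter, 0 with only the groups compared and 10 with the replicate block, and ran from 8 to 97 when 1 library was left out. Replicate numbers do not pair the intact and heterozygous libraries after Ang II, whose same-numbered correlations were −0.0591, 0.0106 and 0.0322. They were 0.212 and 0.0783 after PBS, and 0.452 for heterozygous and knockout replicates 4 after Ang II, so pairing there was not settled. Both replicates 4 had high *Xist* (3379 and 3626 CPM), a Y-linked sum of 0 CPM and the largest totals of their groups (6318379 and 5212330 counts). The part of these traits in the correlation was not tested. The cause of these shifts was not tested.

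With the intestinal list as a covariate, chosen after seeing the data, the median over all genes moved from 0.02 to −0.11, and the log2 difference was 0.57 for *Adgrl1*, 0.33 for *Ctnnal1*, −0.70 for *Gbp3*, 0.14 for *Ifit2*, −0.84 for *Sesn1*, 0.23 for *Gas5* and 0.40 for *Dsp*, reversed from the values above. List medians moved as well. They took the other sign for MHC class II (−0.56), renin-angiotensin (−0.28), interferon (−0.04), G2 and M phase (−0.02), cyclin and CDK (0.04), p53 target (−0.59), heat shock (−0.03), noncoding (−1.23), sex-linked (0.08), erythroid (0.05), intestinal (0.59), pancreatic (0.05), keratinocyte (0.94) and smooth muscle and endothelial genes (−0.01). S phase genes moved to −0.76 and macrophage and dendritic cell genes to 2.68. Most tested members of the intestinal list separated the same groups, so this covariate is tied to genotype. The reversed values therefore settle no direction. The cause was not tested. The share of mitochondrial counts was not run, because no mitochondrial gene matched the table.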
